A study of Mus musculus with 2 samples.

Results

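The microRNA genes described here lie at the Meg3 end of the imprinted Dlk1-Dio3 locus of mouse chromosome 12, and are Mir770, Mir673, Mir493, Mir337, Mir540 and Mir665. They were chosen by symbol, through the GENCODE M21 gene IDs of the deposited tables, and are 6 of the 2202 microRNA genes in those tables. Total RNA of left cerebral cortex, taken from B6CASTF1/J females aged 4 days, was the source of the libraries, in which RNAs under 30 bases long were sequenced. B6CASTF1/J is a first-generation cross between the inbred strains C57BL/6 and CAST (castaneus). There was 1 group of 2 animals, called replicates 1 and 2, with 1 library each. No treatment, mutation or transgene is named for them, and both carry the same donor record. With no other group there was nothing to compare across conditions, and no test between groups was run. A difference between the libraries sets 1 animal against another, and the animal cannot be told apart from its dissection or its library preparation.

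A microRNA gene is transcribed into a long precursor, from which a hairpin is cut. One or both arms of that hairpin yield a short mature RNA, which guides Argonaute proteins to messenger RNAs that pair with its seed, the stretch near its 5′ end. The Dlk1-Dio3 locus expresses protein-coding genes such as Dlk1, Rtl1 and Dio3 from the paternal chromosome. From the maternal chromosome it expresses noncoding RNAs, among them Meg3 (also called Gtl2), Rian and Mirg, together with many microRNAs. This imprinted cluster is known for its expression in brain. The 6 genes lie from Meg3 to just before Rtl1, ahead of the microRNAs that are antisense to Rtl1. Mir770, Mir493, Mir337 and Mir665 have human counterparts of the same number at the matching human locus. The counts were not split by allele, so they say nothing of parental origin in these animals.

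The mature products show that these neighbours are not copies of one another. Their sequences are from RefSeq (build GRCm38.p6), where all 6 genes matched by symbol, and all lie on the plus strand. Each is written 5′ to 3′ in lower case with the seed, bases 2 to 8, in capitals.
mmu-miR-770-5p: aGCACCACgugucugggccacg
mmu-miR-770-3p: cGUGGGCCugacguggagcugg
mmu-miR-673-5p: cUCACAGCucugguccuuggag
mmu-miR-673-3p: uCCGGGGCugaguucugugcacc
mmu-miR-493-5p: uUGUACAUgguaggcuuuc
mmu-miR-493-3p: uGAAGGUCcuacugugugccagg
mmu-miR-337-5p: cGGCGUCAugcaggaguugauu
mmu-miR-337-3p: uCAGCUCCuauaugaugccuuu
mmu-miR-540-5p: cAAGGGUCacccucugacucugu
mmu-miR-540-3p: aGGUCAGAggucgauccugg
mmu-miR-665-5p: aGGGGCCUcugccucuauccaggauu
mmu-miR-665-3p: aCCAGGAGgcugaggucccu

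The 12 products carried 12 different seeds, so no pair of these genes, and no pair of arms, forms a seed family. Of the 12 products, 10 had a seed that no other product in the RefSeq table of 1679 mouse mature microRNAs carries. Over that whole table, 72.1% of products had a seed of their own. The seed of miR-673-5p recurs in miR-6985-3p, whose gene Mir6985 had 16 reads in replicate 1 and 9 in replicate 2. The seed of miR-540-3p recurs in miR-6915-5p, whose gene Mir6915 had 27 and 6 reads. The products were 19 (miR-493-5p) to 26 (miR-665-5p) bases long. The deposited counts cover the whole hairpin, so a level given for a gene is the sum of both arms and cannot be assigned to either product.

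The 6 hairpins spread over 22716 bases (mm10 build), and only Mir770 lay inside another annotated gene. Mir770 (ENSMUSG00000076451.1, chr12:109563692-109563785) starts 22.7 kb from the start of Meg3. In M21 it falls within exon 5, the last exon, of 1 Meg3 transcript and within introns of 3 others, out of 11 annotated Meg3 transcripts. Mir673 (ENSMUSG00000076316.1, chr12:109571990-109572080) begins 263 bases beyond the annotated end of Meg3. Mir493 (ENSMUSG00000077025.2, chr12:109580233-109580315) follows after a gap of 8152 bases. Mir337 (ENSMUSG00000065526.4, chr12:109585789-109585885), Mir540 (ENSMUSG00000072900.2, chr12:109586080-109586146) and Mir665 (ENSMUSG00000076313.1, chr12:109586314-109586407) stand together within 619 bases, with gaps of 194 and 167 bases. Mir665 ends 2785 bases before Rtl1, which runs on the opposite strand. These 5 genes lie in no other gene of M21, whether exon, intron or untranslated region. The hairpins were 67 (Mir540) to 97 (Mir337) bases long.

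None of the 6 hairpins shared a run of 22 bases with any other microRNA gene of M21 on its own strand, whereas 46.5% of all 2202 genes did. Reads that map to several places are kept out of the gene counts, so genes that share such runs can be undercounted. These reads were 45.8% of all reads in replicate 1 and 41.0% in replicate 2. The levels, ranks and shares below may therefore set the 6 genes too high against such genes. The Mir770 hairpin was 70.2% G and C, at percentile 97.0 of all microRNA genes, whose median was 50.8%. Mir673 followed with 61.5% and Mir540 with 61.2%, while Mir665 (53.2%), Mir493 (53.0%) and Mir337 (52.6%) stood nearer to the median. Folded with RNAfold, the Mir770 hairpin had a minimum free energy of -58.2 kcal/mol, or -0.62 kcal/mol per base. Mir540 reached -0.61 kcal/mol per base, and the median of all 2202 genes was -0.37. The weakest of the 6 by this predicted measure was Mir673 with -0.46 kcal/mol per base.

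Across both libraries the group was led by Mir770, the gene inside Meg3. All 6 genes were detected, meaning 2 CPM or more (counts scaled to a total of 1000000 microRNA reads) in both libraries, against 20.4% of all 2202 microRNA genes. Their mean levels ranged from 71.7 to 17592 CPM with a median of 1000 CPM, and the median of all 450 detected genes was 89.2 CPM. The libraries held 11686912 reads (replicate 1) and 9938361 (replicate 2), of which 3555469 and 2761003 lay in microRNA genes on their annotated strand. One CPM therefore stands for 3.56 and 2.76 reads, and a gene with no read may still stand at up to 0.844 and 1.09 CPM (3 counts). Intervals given for one library, Wilson for levels and shares and Clopper-Pearson for ratios, are at 95% and cover counting error only, since amplified reads are not independent molecules. As a check that the tables are not a single library deposited under both replicates, their counts over 525 genes gave a chi-square statistic of 322 per degree of freedom. That figure sets these libraries against counting noise alone and says nothing of the spread between animals. Neuron-enriched microRNAs held 8.76% of replicate 1 and 6.78% of replicate 2, with 9 of 12 markers detected, led by Mir139, Mir149 and Mir137. Those not detected were the copies of Mir124a: Mir124a-1 (1.41 and 3.62 CPM), Mir124a-2 (1.69 and 1.81 CPM) and Mir124a-3 (2.53 and 0.724 CPM). Multiply mapped reads are not in these counts, and their part in these low values was not tested. MicroRNAs of the Hox clusters, which mark hindbrain and spinal cord, held 0.00678% and 0.00786%.

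Mir770 had 54759 reads in replicate 1 and 54618 in replicate 2. Scaled to library size this was 15401 CPM (15274 to 15530) and 19782 CPM (19618 to 19947), a mean of 17592 ± 3098 CPM (SD, n = 2). It ranked 13 among all microRNA genes by mean level in these counts, which leave out multiply mapped reads. Its neighbours in that ranking were Mir382, just above at 17768 CPM, and Mir487b, just below at 16742 CPM, both microRNAs of the distal part of the same locus. Their mean log2(CPM + 1) over both libraries differed from that of Mir770 by 0.02 and -0.27. Mir487b was near Mir770 in the mean only, with 25233 CPM in replicate 1 and 8251 CPM in replicate 2.

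Mir673 came first beyond the end of Meg3 and was far lower. It had 1612 reads in replicate 1 and 1425 in replicate 2, which is 453 CPM (432 to 476) and 516 CPM (490 to 544), with a mean of 485 ± 44.4 CPM (SD, n = 2). Its level lay at rank 137, between Mir467e (498 CPM) and Mirlet7a-1 (482 CPM). Multiply mapped reads are left out of these counts, so either neighbour may be undercounted here. Mir770 was 34.0 times Mir673 in replicate 1 (32.3 to 35.7) and 38.3 times in replicate 2 (36.4 to 40.4).

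Mir493, 8506 bases beyond Meg3 and 8877 bases before Rtl1, was the lowest of the 6. It had 247 and 204 reads, or 69.5 CPM (61.3 to 78.7) and 73.9 CPM (64.4 to 84.7), with a mean of 71.7 ± 3.12 CPM (SD, n = 2). The intervals of both libraries overlapped. It ranked 240, beside mmu-mir-3535 (71.9 CPM) and Mir122 (70.9 CPM), the latter a microRNA known from liver.

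The 3 genes that stand close together before Rtl1 differed in level in the order in which they lie. Mir337 had 7221 and 6537 reads, or 2031 CPM (1985 to 2078) and 2368 CPM (2311 to 2426), with a mean of 2199 ± 238 CPM (SD, n = 2) and rank 76, between Mir187 (2302 CPM) and Mir21a (2113 CPM). Mir540 had 5094 and 3528 reads, or 1433 CPM (1394 to 1473) and 1278 CPM (1236 to 1321), with a mean of 1355 ± 110 CPM (SD, n = 2) and rank 97, between Mir15a (1359 CPM) and Mir501 (1348 CPM). Mir665 had 2750 and 1430 reads, or 773 CPM (745 to 803) and 518 CPM (492 to 545), with a mean of 646 ± 181 CPM (SD, n = 2) and rank 125, between Mir146 (652 CPM) and Mir31 (619 CPM). Mir337 and Mir673 were higher in replicate 2 with intervals that did not overlap between the libraries, and Mir540 and Mir665 were higher in replicate 1, likewise without overlap.

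**Figure D1:**
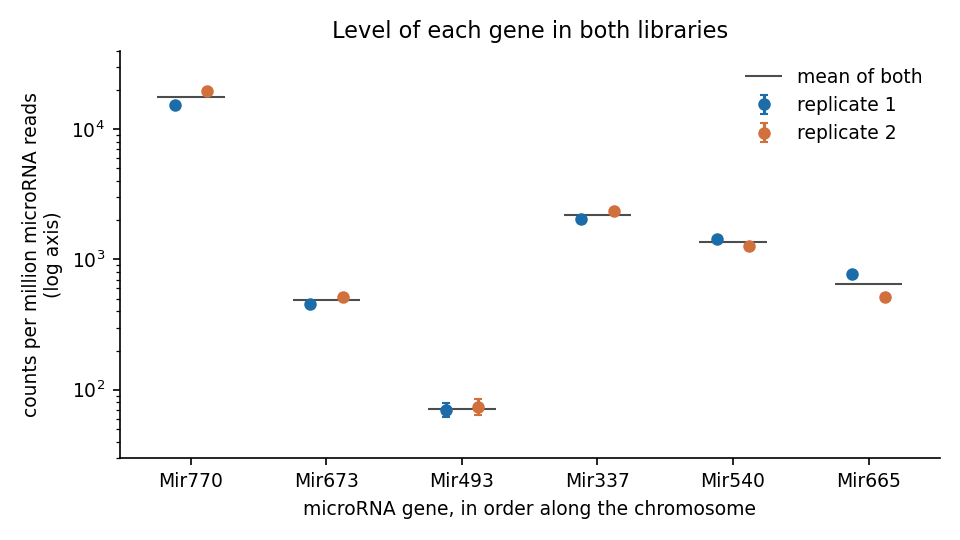
CPM (log axis) of the 6 genes, in chromosomal order. Points are replicates 1 and 2 with 95% Wilson counting intervals, many smaller than the symbol, and the line is their mean; Mir770 stands highest at 17592 CPM and Mir493 lowest at 71.7 CPM.

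From high to low the order was Mir770, Mir337, Mir540, Mir665, Mir673 and Mir493. Mir770 was 7.58 times Mir337 in replicate 1 and 8.36 times in replicate 2. By mean level Mir337 was 1.62 times Mir540, Mir540 was 2.10 times Mir665, and Mir673 was 6.76 times Mir493, and in these pairs, as for Mir770 and Mir337, the values of the libraries did not overlap. The values of Mir665 and Mir673 did not overlap either, but only 1.81 CPM lay between them, and their means differed by 161 CPM, less than the SD of 181 CPM of Mir665. In replicate 1 Mir665 was 1.71 times Mir673, while in replicate 2 the reads were 1430 and 1425. Each read stands for a whole small RNA, so levels were not divided by length. Divided by hairpin length, an alternative chosen after seeing the data, they ran from 18715 CPM per 100 bases (Mir770) to 86.4 CPM per 100 bases (Mir493) and kept this order.

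Together the 6 genes held 2.02% of microRNA counts in replicate 1 (Wilson interval 2.00 to 2.03) and 2.45% in replicate 2 (2.44 to 2.47), a mean of 2.23% ± 0.309 (SD, n = 2). Mir770 alone made up 76.4% (76.1 to 76.7) and 80.6% (80.3 to 80.9) of the reads of the 6. Mir337 made up 10.1% and 9.65%, Mir540 7.11% and 5.21%, Mir665 3.84% and 2.11%, Mir673 2.25% and 2.10%, and Mir493 0.345% and 0.301%. The 5 genes beyond Meg3 held 0.476% of microRNA counts in replicate 1 (0.469 to 0.483) and 0.475% in replicate 2 (0.467 to 0.484). The summed share of those 5 was thus alike in both animals within counting error, although its members differed in both directions. With library sizes adjusted as for the ratios below, the log2 ratio of their sum was 0.04 (0.00 to 0.07). Mir770 was 3.24 times their sum in replicate 1 (3.18 to 3.29) and 4.16 times in replicate 2 (4.08 to 4.24).

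Set against the rest of the locus, the 6 genes contributed 14.5% of its microRNA reads in replicate 1 and 18.2% in replicate 2. The locus was taken from the start of Meg3 to the end of Mirg and held 66 microRNA genes, 52 of them detected, with 13.9% and 13.4% of all microRNA counts. The Rtl1 stretch, from Mir431 to Mir136, contributed 24.6% and 29.1% of the reads of the locus with 5 of 7 genes detected, led by Mir127 (22717 ± 3277 CPM; SD, n = 2) and Mir433 (9878 ± 784 CPM). The 49 genes beyond it, 39 of them detected, contributed 60.9% and 52.6%, led by Mir382 and Mir487b. The median level of detected genes was 1000 CPM for the 6 genes, 2410 CPM for the Rtl1 stretch and 451 CPM beyond it. The 4 other microRNA genes before the Rtl1 stretch are named here after their values were seen. Mir3070a had 33 and 16 reads, Mir3070b 41 and 20, Mir3544 1 and 0, and Mir1906-1, also inside Meg3, had none in either library. Whether multiply mapped reads, which are left out, have a part in the low counts of these 4 genes was not tested.

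**Figure D2:**
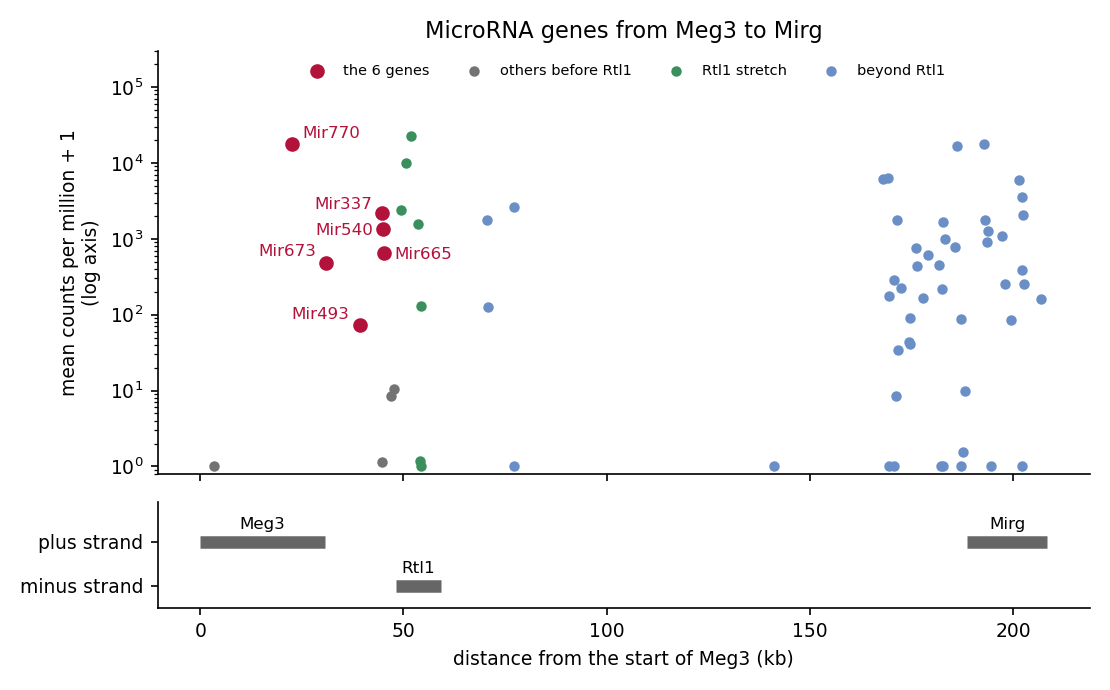
Mean level (CPM + 1, log axis) of each of the 66 microRNA genes against the distance of its start from the start of Meg3 in kb, with Meg3, Rtl1 and Mirg drawn below on their strands. Mir770, inside Meg3, lies near the top of the locus, with Mir127, Mir382 and Mir487b as its nearest equals by mean level, while Mir493 is the lowest of the 6.

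Between the animals the 6 genes moved in both directions, and none by as much as 2-fold. Ratios are log2 of replicate 2 over replicate 1, with library sizes adjusted by the trimmed mean of M-values (TMM) and 0.5 added to each count, over the 525 genes whose reads in both libraries add up to at least 10. Mir770 had a log2 ratio of 0.40 (counting interval 0.38 to 0.42), or 1.32-fold higher in replicate 2. Mir337 had 0.26 (0.21 to 0.31), Mir673 0.22 (0.12 to 0.33) and Mir493 0.13 (-0.15 to 0.40), the last with an interval that spanned 0. Mir540 had -0.13 (-0.19 to -0.07) and Mir665 -0.54 (-0.63 to -0.45), or 1.45-fold higher in replicate 1. These signs were the same with TMM, RLE size factors and library size alone.

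Of the 6 genes, 0 were at least 2-fold higher in replicate 1, against 12.6% of all genes with a ratio, and 0 in replicate 2, against 11.0%. With 6 genes, background shares of this size give less than 1 gene in each direction, and nothing particular to the group is read from the counts. Counting intervals lay wholly on one side of 0 for 5 of the 6 genes and for 55.2% of all 525. Such intervals narrow as reads increase, so these shares depend on read number and nothing is read from them either. The median absolute log2 ratio was 0.24 for the 6 genes and 0.42 for all 525, many of which have far fewer reads. The median log2 ratio was 0.18 for the 6 genes, 0.14 for the 5 genes of the Rtl1 stretch and -0.24 for the 39 genes beyond it, where 5 genes were at least 2-fold higher in replicate 1, among them Mir487b with -1.57 (-1.60 to -1.55). For all 525 genes it was -0.01.

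**Figure D3:**
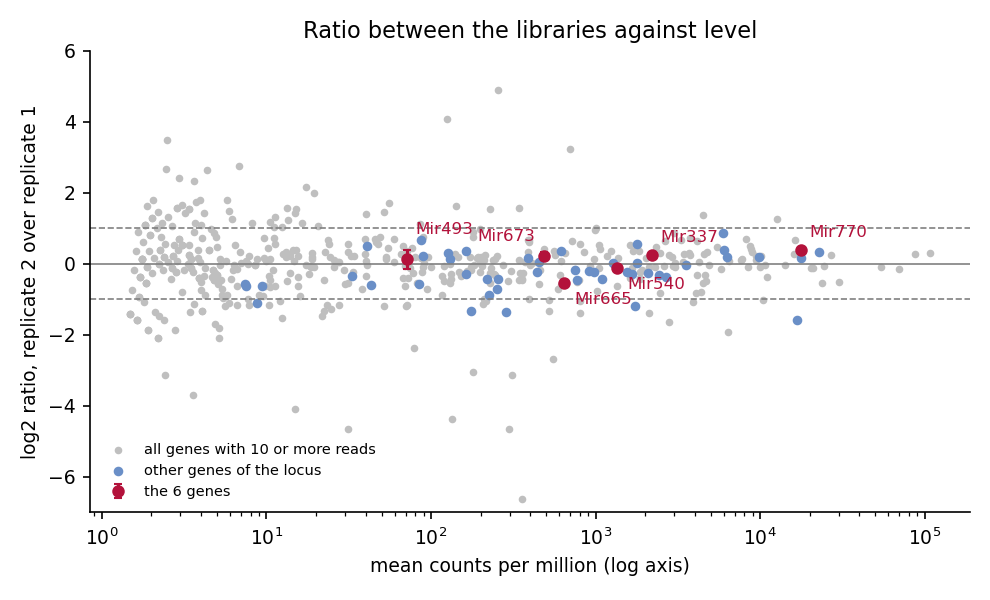
Log2 ratio of replicate 2 over replicate 1 against mean CPM (log axis) for 525 genes. Red points are the 6 genes with 95% counting intervals, blue points the other genes of the locus, and dashed lines mark 2-fold; the 6 genes lie between -0.54 (Mir665) and 0.40 (Mir770), inside those lines.

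Ratios within a library do not depend on scaling. They are given here for the 3 close neighbours, with intervals that cover counting error in each library and not the spread between animals. Mir337 was 1.42 times Mir540 in replicate 1 (1.37 to 1.47) and 1.85 times in replicate 2 (1.78 to 1.93). Mir540 was 1.85 times Mir665 in replicate 1 (1.77 to 1.94) and 2.47 times in replicate 2 (2.32 to 2.63). From Mir337 to Mir665, across 619 bases, the ratio was 2.63 (2.51 to 2.74) in replicate 1 and 4.57 (4.32 to 4.84) in replicate 2, a 1.74-fold difference between the animals. Mir673 was 6.53 times Mir493 (5.70 to 7.49) and 6.99 times (6.03 to 8.13), and Mir493 was 0.0342 times Mir337 (0.0300 to 0.0388) and 0.0312 times (0.0270 to 0.0359). The wider intervals of these pairs go with the 247 and 204 reads of Mir493, and differences between pairs were not tested. How much such ratios vary among further animals was not measured with 1 library per animal.

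Markers of other cell types also differed between the libraries. The 7 epithelial microRNAs, of which 6 were detected, summed to 2475 CPM (replicate 1) against 361 CPM (replicate 2). The 7 of choroid plexus and ciliated cells, 5 of them detected, summed to 5228 and 2794 CPM. The 3 matched red cell microRNAs, all detected, summed to 60.2 and 550 CPM. No gene of these 3 lists was at 0 in both libraries. Of 8 striated muscle microRNAs, 1 was detected and 5 had no read in either library (Mir1a-1, Mir1a-2, Mir133a-1, Mir133a-2 and Mir133b), and the list summed to 38.3 and 19.2 CPM. With 1 of 8 genes detected, the striated muscle list is given no direction. By sum, the epithelial, choroid plexus and neuron-enriched lists were thus higher in replicate 1, as were Mir540 and Mir665. Within the neuron-enriched list the directions were mixed. Mir128-1 (log2 ratio -1.03), Mir128-2 (-0.80), Mir139 (-0.54) and Mir129-2 (-0.20) were higher in replicate 1, and Mir137 was slightly so (-0.04). Mir129-1 had -0.23 with an interval that spanned 0 (-0.48 to 0.02). The copies Mir138-1 (0.87) and Mir138-2 (0.95) were higher in replicate 2. The red cell list was higher in replicate 2, as were Mir770, Mir337 and Mir673, while the interval of Mir493 spanned 0. The Hox list summed to 67.8 and 78.6 CPM, and no direction is read from it. Its detected members had log2 ratios of 0.28 (-0.00 to 0.57) for Mir10b and -0.42 (-1.49 to 0.57) for Mir10a. The part of such cells in these differences was not tested, and in whole tissue more cells of a type and more RNA per cell cannot be told apart.

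Mir337 is the only one of the 6 that another microRNA gene overlaps. Mir3544 (ENSMUSG00000105210.1, chr12:109585813-109585873) lies on the minus strand wholly within it, an overlap of 61 bases. Both hairpins are shown 5′ to 3′ on their own strand, from RefSeq (GRCm38.p6), with the mature arms in capitals, because the level of Mir337 rests on telling them apart by strand.
Mir337: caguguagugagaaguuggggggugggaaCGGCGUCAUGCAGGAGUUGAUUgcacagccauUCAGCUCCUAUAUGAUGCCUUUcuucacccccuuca
Mir3544: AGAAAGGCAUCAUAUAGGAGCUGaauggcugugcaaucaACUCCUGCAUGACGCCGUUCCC

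The arms face each other across the strands. On the genome miR-337-3p and miR-3544-5p share 21 bases, and miR-337-5p and miR-3544-3p share 17. With strand, Mir337 had 7221 reads in replicate 1 and 6537 in replicate 2 on its annotated strand, while Mir3544 had 1 and 0 on its own. The count of 0 for Mir3544 allows up to 1.09 CPM. Opposite to their annotated strand, the counts were the mirror image, with 1 and 0 for Mir337 and 7221 and 6537 for Mir3544. With strand ignored, both genes had 0 reads in both libraries. That column has a total of ambiguous reads, which held 213069 and 175822, and the reads of Mir337 equal 3.39% and 3.72% of it. The other 5 genes had the same count with and without strand and 0 reads opposite to them in both libraries.

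**Figure D4:**
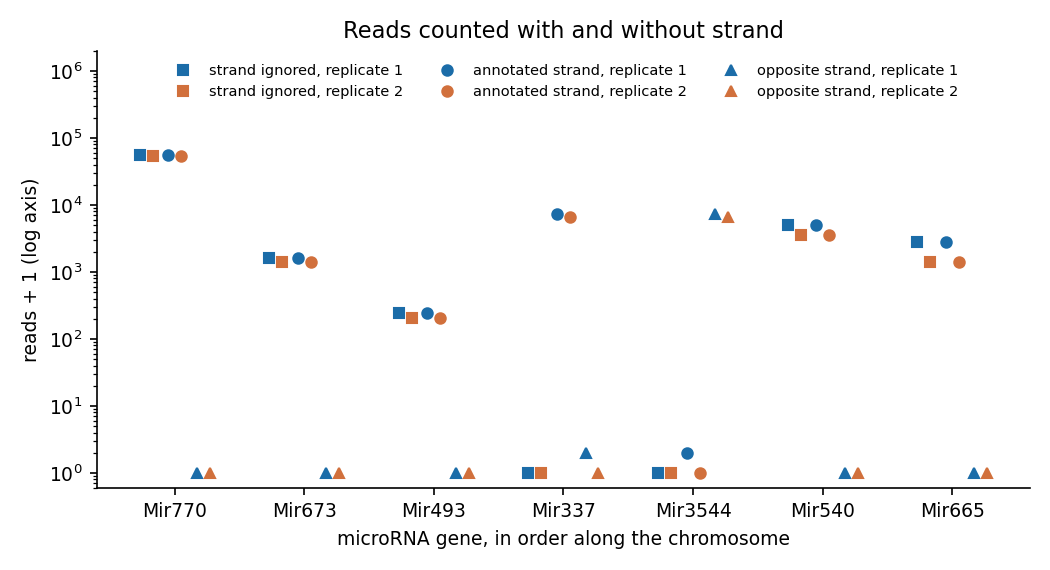
Reads + 1 (log axis) for the 6 genes and Mir3544 in each library, counted with strand ignored (squares), on the annotated strand (circles) and on the opposite strand (triangles). For Mir337 the squares fall to 0 reads while the circles stand at 7221 and 6537, and for the other 5 genes squares and circles coincide.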

How the data were processed

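The authors deposited raw counts of reads per microRNA gene in a separate table for each library. Build mm10 and GENCODE annotation M21 were used, per the deposited notes. Aligner, counter, trimming and filters are not given in the sources used here. Since the columns are unnamed, layout and values were taken to mean strand ignored, annotated strand (used here) and opposite strand. Totals without a gene did not enter library sizes: multiply mapped reads were 45.8% and 41.0% of all reads in replicates 1 and 2, unmapped reads 19.3% and 25.6%, and reads outside microRNA genes 4.50% and 5.63%.

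Computed here were CPM over all microRNA genes, TMM and RLE factors with edgeR 4.0.16 (R 4.3.3), Wilson and Clopper-Pearson intervals with scipy 1.17.1, and folds with RNAfold 2.7.2. The ratio and its interval were tested on data simulated with counting (Poisson) noise only. That test says nothing of the spread between animals. Mapping of reads with CAST variants to mm10 was not tested. The 6 genes and all lists were chosen with earlier results of these data known. Besides the 6, genes were named by a fixed rule: the nearest above and below each in mean CPM, the 2 highest of each further stretch of the locus, overlapping microRNA genes, and cell type markers (the listed Mir486b matched no gene). Mir3070a, Mir3070b, Mir1906-1, Mir6985 and Mir6915 fall outside that rule and were named after their values were seen. That the libraries come from 2 animals rests on the labels.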

Additional observations from a re-analysis of the deposited data

How the results depend on the processing

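All 6 genes stayed detected at minimums of 1 and 10 CPM and in either library alone, and 0 of the 6 reached 2-fold with TMM, RLE factors or library size. With TMM as reported, 0 of the 6 reached 1.5-fold, where 37.7% of all 525 genes did. With TMM without a count filter, Mir665 had a log2 ratio of -0.60, which is past 1.5-fold. Of 29 recomputed ratios, 26 stayed within the counting interval of the reported value, and every sign was kept. The exceptions were Mir770 at 0.36 with library size alone and 0.34 with TMM without a count filter, and Mir337 at 0.20 without that filter. Of 14 levels and shares recomputed from both libraries under another setting, 11 moved by no more than 1 SD. With strand ignored, Mir337 fell to 0 CPM, so that no ratio could be computed, since its reads overlap Mir3544, and Mir493 stood at 76.4 CPM because the total was smaller. Without the 10 most abundant genes in the denominator the 6 genes held 4.19% of counts, by construction of that share. With 1 of 2 replicates left out, which by construction moves a mean by less than 1 SD and shows no stability, levels ranged from 15401 to 19782 CPM for Mir770, 518 to 773 for Mir665 and 69.5 to 73.9 for Mir493, and the summed share from 2.02% to 2.45%. Depth limits Mir493 most, with 204 reads in replicate 2. No paired analysis was possible because there is 1 group only.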
